A study of Mus musculus with 12 samples.

Results

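The genes described here encode the kinases that signal DNA damage to the cell cycle and the ring-shaped clamp that helps to start this signal. They were chosen by name: Atm, Atr, Atrip, Rad9a, Rad1, Hus1, Rad17, Topbp1, Chek1 and Chek2, 10 of the 24421 genes in the table. All 10 passed the expression filter of edgeR and were tested, as were 15220 genes in total.

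The study measured RNA in mouse embryonic fibroblasts (MEFs) to ask how cells without the transcription factors TFEB and TFE3 respond to DNA damage. According to the study its MEFs had been immortalized with SV40, which can alter how stable the p53 protein is. The part of the immortalization in the results below was not tested. It compared Null MEFs, the control genotype, with MEFs in which Tfeb and Tfe3 had been inactivated by CRISPR editing (double knockout, DKO). Each genotype was kept untreated or given 100 µM etoposide for 8 hr, a drug that traps topoisomerase II on DNA and so leaves double-strand breaks. The 4 groups of 3 libraries are called Null control, Null etoposide, DKO control and DKO etoposide. The sample labels call the controls untreated, whereas the methods of the study describe DMSO. Each genotype was 1 line, so effects of the genotype and of the clone cannot be told apart. Nothing in the labels says that the replicates were separate cultures, so the p-values measure only the spread between these libraries, which may be technical. Counts on genes ranged from 45.6 to 104.1 M per library (10⁶ counts) with a median of 71.6 M, and levels are given as counts per 10⁶ counts after TMM scaling (CPM). Differences are log2 fold changes with their standard errors (SE), called where the quasi-likelihood test of edgeR, adjusted by Benjamini-Hochberg over all genes tested, gave an adjusted p under 0.05.

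ATM responds mainly to double-strand breaks, whereas ATR, brought by its partner ATRIP, responds to single-stranded DNA coated with replication protein A. RAD17 loads the clamp of RAD9A, RAD1 and HUS1 at such sites, and the clamp brings TOPBP1, which activates ATR. ATR mainly switches on the effector kinase CHK1 and ATM mainly switches on CHK2, and both kinases act largely through phosphorylation, which RNA levels do not show.

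The targeted genes were examined first. Tfeb was measured at 38.9, 39.2 and 42.1 CPM in the Null control libraries and at 4.60, 6.09 and 4.68 CPM in the DKO control libraries. After etoposide Tfeb was at 11.4, 10.2 and 10.4 CPM in Null MEFs and at 1.92, 1.61 and 2.20 CPM in DKO MEFs. Every DKO library lay below every Null library of its treatment for this gene. Tfe3 was at 115, 109.9 and 114 CPM in Null control, 94.1, 93.1 and 91.0 CPM in DKO control, 68.5, 69.6 and 68.1 CPM in Null etoposide and 70.7, 71.2 and 63.4 CPM in DKO etoposide. The Tfe3 libraries of the 2 genotypes did not overlap without etoposide and overlapped after it, so the RNA level of Tfe3 separates the genotypes only in the untreated libraries.

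Most markers of fibroblasts were high in all libraries. The 10 fibroblast markers summed to 7580, 7595 and 7731 CPM in Null control, 4839, 4670 and 4682 CPM in Null etoposide, 12540, 13240 and 12600 CPM in DKO control and 6474, 6511 and 6231 CPM in DKO etoposide. By group mean, though not in every library, Vim was the most abundant except in DKO etoposide, where Fn1 was. One marker, Thy1, had 366, 267 and 261 counts in Null control and 4, 3 and 1 in DKO control, and another, Lum, had 8, 8 and 12 counts in Null control and 62, 85 and 39 in DKO control. Of the other cell types, the 6 macrophage and blood markers summed to at most 14.9 CPM in any library, the 5 epithelial markers to at most 3.16 CPM and the 5 endothelial markers to at most 3.09 CPM. The most abundant were Cd68 and Cdh1 in every group for the first 2 lists and Tek or Pecam1, by group, for the endothelial list, and Adgre1 had no count in the control libraries of either genotype. The macrophage and blood sum was between 1.75 and 2.13 CPM in Null control, 13.85 and 14.9 CPM in Null etoposide, 1.71 and 2.75 CPM in DKO control and 3.88 and 4.895 CPM in DKO etoposide. Most of this sum was Cd68 alone, with means of 1.44, 11.96, 1.56 and 3.08 CPM in these groups, in that order. The next highest of that list in Null etoposide was Lyz2, with a mean of 0.84 CPM. These lists moved with the groups, and their part in the results below was not tested. In such bulk samples fewer cells of a type and less RNA per cell cannot be told apart.

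Etoposide changed 7 of the 10 checkpoint genes in Null MEFs, 4 higher and 3 lower, where 79.4% of all genes tested were called, 42.3% higher and 37.2% lower. In DKO MEFs it also changed 7 of 10, 6 higher and 1 lower, against 75.1% of all genes, 43.7% higher and 31.5% lower. Without etoposide 9 of 10 differed between the genotypes, 6 higher in DKO and 3 lower, against 66.7% of all genes, 33.3% higher and 33.4% lower. After etoposide 8 of 10 differed, 6 higher in DKO and 2 lower, against 74% of all genes, 37.5% higher and 36.6% lower. The etoposide response itself differed between genotypes (the interaction) for 7 of 10, 5 with a higher and 2 with a lower response in DKO, against 54% of all genes, 29.6% higher and 24.4% lower. The total share called was thus below that of all genes for etoposide in each genotype and above it in the other comparisons. The share called higher was above that of all genes in all but etoposide in Null. These placements did not hold in every fit. With library size alone 10 of 10 were called for etoposide in DKO, against 12320 of all 15220 genes. With no filter 7 of 10 were called for etoposide in Null, against 13252 of all 21587 genes. In DKO 6 of 10 were then called, against 11970. Between untreated genotypes the total share was below that of all genes with the replicate number as a block. There 6 of 10 were called, against 10171 of all 15220 genes. With library size alone the share called higher was below as well. There 5 of 10 were called, 2 of them higher, against 10370 of all genes, 3977 of them higher. No test over the 10 genes was made, so nothing particular to the checkpoint genes is read from these counts. Their median log2 fold changes in these 5 comparisons, in the same order, were -0.02, 0.18, 0.13, 0.25 and 0.15, and those of all genes tested were 0.07, 0.14, -0.02, -0.00446 and 0.05. Each etoposide comparison shares libraries with each genotype comparison, so no overlap between comparisons is given.

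The scaling mattered for small changes. With library size alone in place of TMM, the median of all genes moved by 0.17 for etoposide in Null, 0.27 for etoposide in DKO, -0.12 between untreated genotypes and 0.1 for the interaction. The split of all calls into higher and lower then became 7806 and 4396 in place of 6435 and 5656 for etoposide in Null, and 9316 and 3004 in place of 6645 and 4790 for etoposide in DKO. Between untreated genotypes it became 3977 and 6393 in place of 5066 and 5091, and for the interaction 5734 and 3055 in place of 4507 and 3719. Of the 10 checkpoint genes, 7 were then called higher and 1 lower for etoposide in Null (4 and 3 with TMM), 10 higher and 0 lower for etoposide in DKO (6 and 1 with TMM) and 2 higher and 3 lower between untreated genotypes (6 and 3 with TMM). DESeq2's size factors turned the split of all calls for the interaction the other way, to 3797 higher and 4192 lower (median -0.02). Between genotypes after etoposide they turned it to 5072 higher and 6096 lower, in place of 5701 and 5569. Changes of direction with another scaling are given beside the gene or in the figure of the responses.

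**Figure D1:**
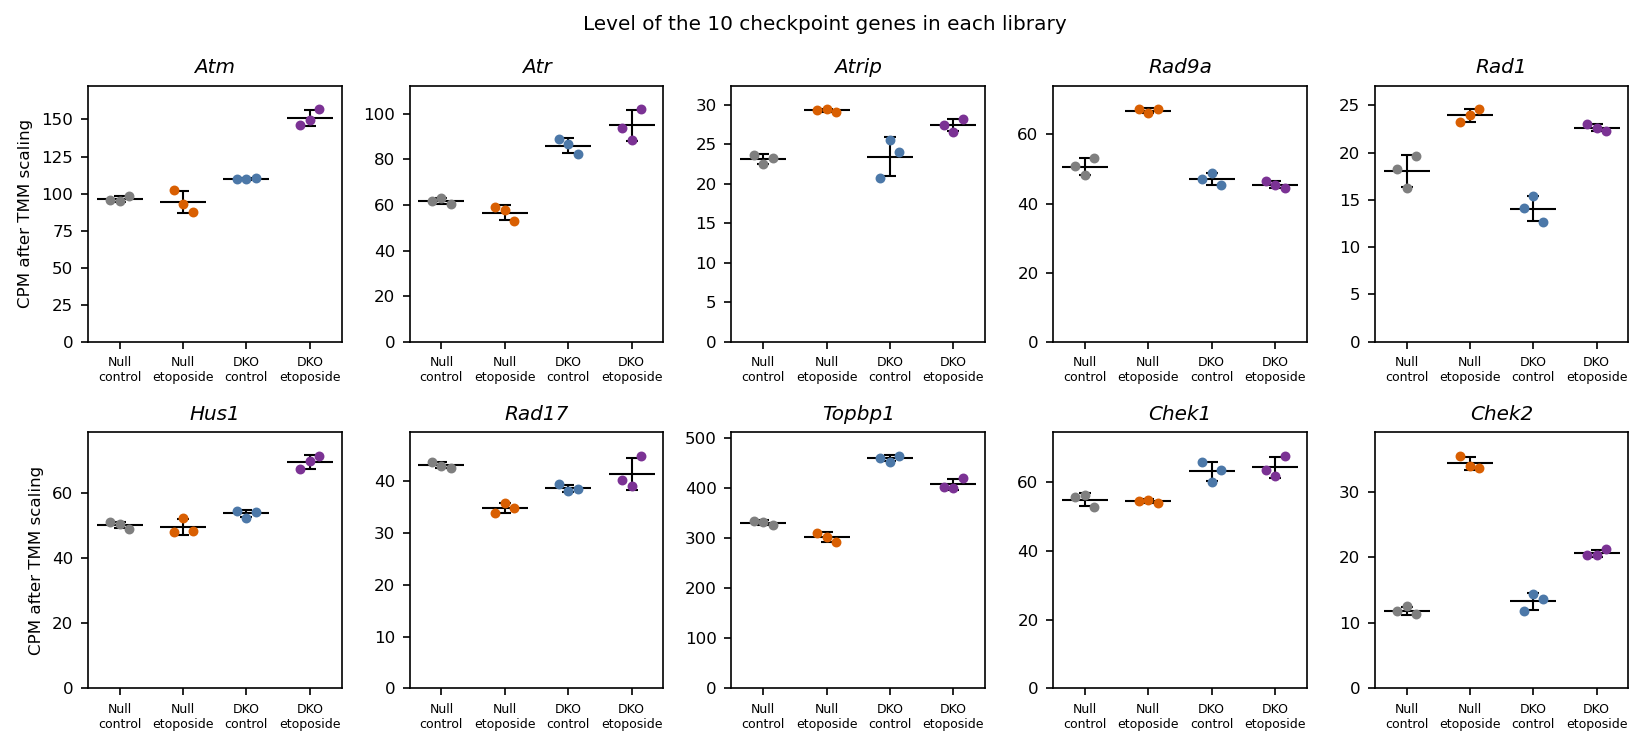
Level of each checkpoint gene in CPM after TMM scaling (y axis, from 0) in the 4 groups (x axis), with 1 point per library and a bar for the mean and SD of 3 libraries. Chek2 is highest in the Null etoposide libraries (33.6 to 35.5 CPM), whereas Atm and Hus1 are highest in the DKO etoposide libraries.

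Chek2 (chromosome 5, 110839979 to 110874145, plus strand), the effector kinase downstream of ATM, had the largest response among the 10 genes in Null MEFs. It was at 11.8, 12.5 and 11.3 CPM in Null control and at 35.5, 33.9 and 33.6 CPM in Null etoposide. In DKO MEFs it was at 11.8, 14.4 and 13.6 CPM without etoposide and at 20.3, 20.3 and 21.2 CPM after it. Treated libraries lay above untreated ones in each genotype, and the 3 treated Null libraries lay above the 3 treated DKO libraries. The rise was 2.90-fold in Null MEFs (log2 1.53, SE 0.06, adjusted p = 3.50e-13) and 1.55-fold in DKO MEFs (log2 0.63, SE 0.07, adjusted p = 1.43e-07). The response was smaller in DKO by a log2 difference of -0.90 (SE 0.09, adjusted p = 2.68e-07), and the levels after etoposide differed by -0.73 (SE 0.06, adjusted p = 6.11e-09). Without etoposide the genotypes overlapped and the difference of 0.17 only just passed (SE 0.07, adjusted p = 0.0442). That call was lost in 14 of 21 alternatives, which include leaving out Null control replicate 1 or 3, DKO control replicate 2 or 3, Null etoposide replicate 1 or 2 or any DKO etoposide replicate (0.09 to 0.16 in these fits, the lowest without DKO control replicate 2), and the value was 0.05 with library size alone.

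The promoter of Chek2 is shown because it held the single match among these genes to the motifs searched. Only the forms named below were searched, so E2F sites with other letters may lie in any of the windows. The window holds 300 bases around the RefSeq start on GRCm38.p6, most of them before it, chr5:110839733-110840032, plus strand, and the capitals mark TTTCCCGC, a motif of E2F factors, which here reads on the opposite strand and begins 152 bases before the start.
Chek2: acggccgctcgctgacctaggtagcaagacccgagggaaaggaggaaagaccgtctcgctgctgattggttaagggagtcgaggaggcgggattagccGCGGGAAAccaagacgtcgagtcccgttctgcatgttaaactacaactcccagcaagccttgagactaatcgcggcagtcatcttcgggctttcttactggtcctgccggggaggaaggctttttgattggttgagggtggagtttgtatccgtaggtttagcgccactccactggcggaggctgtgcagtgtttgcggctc
Of the 10 genes, 9 had windows in the RefSeq table, 10 windows in all, and Rad9a was not matched. Each was searched on both strands for CACGTG, the E-box that TFEB and TFE3 bind, for TTTCCCGC and TTTGGCGC, both E2F motifs, and for the 10-base p53 repeat, of which a full p53 site has 2, by name. Over 32851 windows of all genes these were found in 7.15%, 1.07%, 0.514% and 8.36%. CACGTG, TTTGGCGC and the p53 repeat were found in 0 of the 9 genes, which says only that these letters are not in these windows.

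Chek1 (chromosome 9, 36708482 to 36727065, minus strand), the effector kinase downstream of ATR, was at 55.7, 56.1 and 52.7 CPM in Null control and 54.5, 54.8 and 53.7 CPM in Null etoposide. In DKO MEFs Chek1 was at 65.7, 60.1 and 63.4 CPM without etoposide and 63.3, 61.7 and 67.6 CPM after it. Treated and untreated libraries overlapped in each genotype, and every DKO library lay above every Null library. The etoposide response was not called in Null (log2 -0.01, 95% interval -0.11 to 0.08, turned to 0.03 with DESeq2's size factors and 0.15 with library size alone) or in DKO (0.03, 95% interval -0.07 to 0.12, 0.30 with library size alone), and the DKO value turned negative without DKO control replicate 2 (-0.04) or DKO etoposide replicate 3 (-0.02). Between genotypes Chek1 was higher in DKO by 0.20 without etoposide (SE 0.04, adjusted p = 0.000665), a call lost with library size alone (0.08), and by 0.24 after it (SE 0.04, adjusted p = 9.28e-05).

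Rad9a (chromosome 19, 4195196 to 4201662, minus strand), Rad1 (chromosome 15, 10486018 to 10499063, plus strand) and Hus1 (chromosome 11, 8993137 to 9011191, minus strand) encode the 3 subunits of the clamp, and their RNAs responded differently. Rad9a was at 50.8, 48.3 and 53.1 CPM in Null control and 67.3, 66.1 and 67.2 CPM in Null etoposide. In DKO MEFs Rad9a was at 47.2, 48.9 and 45.5 CPM without etoposide and 46.5, 45.5 and 44.5 CPM after it. The treated Null libraries of Rad9a stood above the other 9. It rose by 0.40 in Null (SE 0.04, adjusted p = 1.07e-07) and was not called in DKO (-0.06, 95% interval -0.15 to 0.03), where library size alone turned it to 0.22. The response of Rad9a was lower in DKO by -0.46 (SE 0.06, adjusted p = 4.59e-06), and after etoposide the genotypes differed by -0.56 (SE 0.04, adjusted p = 1.56e-09). Without etoposide the libraries of the genotypes overlapped and the difference of -0.10 (SE 0.04, adjusted p = 0.0421) was lost in 7 of 21 alternatives, which include leaving out replicate 1 or 3 of Null control or of DKO control or replicate 3 of Null etoposide (-0.11 to -0.07 in these fits). Exons of Rad9a share 225 bases, 9.53% of their length, with Ppp1ca on the opposite strand. The strand setting of the counting is not given in the sources used here, so the Rad9a counts are uncertain to that extent.

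Hus1 showed the opposite pattern by genotype. It was at 51.2, 50.5 and 49.1 CPM in Null control and 48.2, 52.4 and 48.4 CPM in Null etoposide. In DKO MEFs Hus1 was at 54.7, 52.5 and 54.3 CPM without etoposide and 67.4, 70.1 and 71.6 CPM after it. The 3 treated DKO libraries stood above all others, and the Null libraries of the 2 treatments overlapped. It was not called in Null (-0.02, 95% interval -0.11 to 0.07), where DESeq2's size factors turned it to 0.03 and library size alone to 0.15, and rose in DKO by 0.37 (SE 0.04, adjusted p = 2.99e-07). The difference between the responses was 0.39 (SE 0.06, adjusted p = 2.15e-05), and after etoposide Hus1 was 0.49 higher in DKO (SE 0.04, adjusted p = 7.36e-09). Without etoposide Hus1 was 0.10 higher in DKO (SE 0.04, adjusted p = 0.0473), a call lost in 12 of 21 alternatives and turned to -0.02 with library size alone. The losses include leaving out any Null control or DKO etoposide replicate, DKO control replicate 1 or 3, or Null etoposide replicate 1 (0.08 to 0.11 in these fits).

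Rad1 rose in both genotypes. It was at 18.2, 16.3 and 19.6 CPM in Null control and 23.2, 24.0 and 24.6 CPM in Null etoposide. In DKO MEFs Rad1 was at 14.2, 15.4 and 12.7 CPM without etoposide and 23.0, 22.6 and 22.3 CPM after it. The DKO control libraries were the lowest, and the treated Null libraries lay just above the treated DKO libraries without overlap. The rise was 0.41 in Null (SE 0.07, adjusted p = 3.86e-05) and 0.68 in DKO (SE 0.07, adjusted p = 1.67e-07). The difference of 0.27 between these responses (SE 0.10, adjusted p = 0.0299) was lost in 10 of 20 alternatives. These were DESeq2's size factors, DESeq2, a filter at a mean of at least 1 CPM, and leaving out replicate 1 or 3 of Null control or of DKO control, replicate 1 of Null etoposide, or replicate 1 or 2 of DKO etoposide, with 0.21 to 0.26 in these fits. Without etoposide Rad1 was lower in DKO by -0.35 (SE 0.07, adjusted p = 0.000378), and after etoposide the difference was not called (-0.08, 95% interval -0.22 to 0.06).

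Ratios of the clamp subunits within a library do not depend on its scaling factor. They were chosen after the values were seen and are given without a test, as levels per kilobase of annotated exon. The Rad9a to Hus1 ratio was 2.71, 2.61 and 2.95 in Null control, 3.81, 3.45 and 3.79 in Null etoposide, 2.36, 2.54 and 2.29 in DKO control and 1.89, 1.77 and 1.70 in DKO etoposide. No 2 groups overlapped, and the ratio was higher after etoposide in Null and lower after it in DKO. The Rad9a to Rad1 ratio was 8.83 ± 0.42 in Null control, 8.76 ± 0.28 in Null etoposide, 10.5 ± 0.62 in DKO control and 6.29 ± 0.05 in DKO etoposide (SD, n = 3 each). The Chek2 to Chek1 ratio was 0.327, 0.344 and 0.330 in Null control, 1.005, 0.955 and 0.965 in Null etoposide, 0.278, 0.370 and 0.330 in DKO control and 0.495, 0.508 and 0.485 in DKO etoposide, so that the controls overlapped and the treated groups did not.

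**Figure D2:**
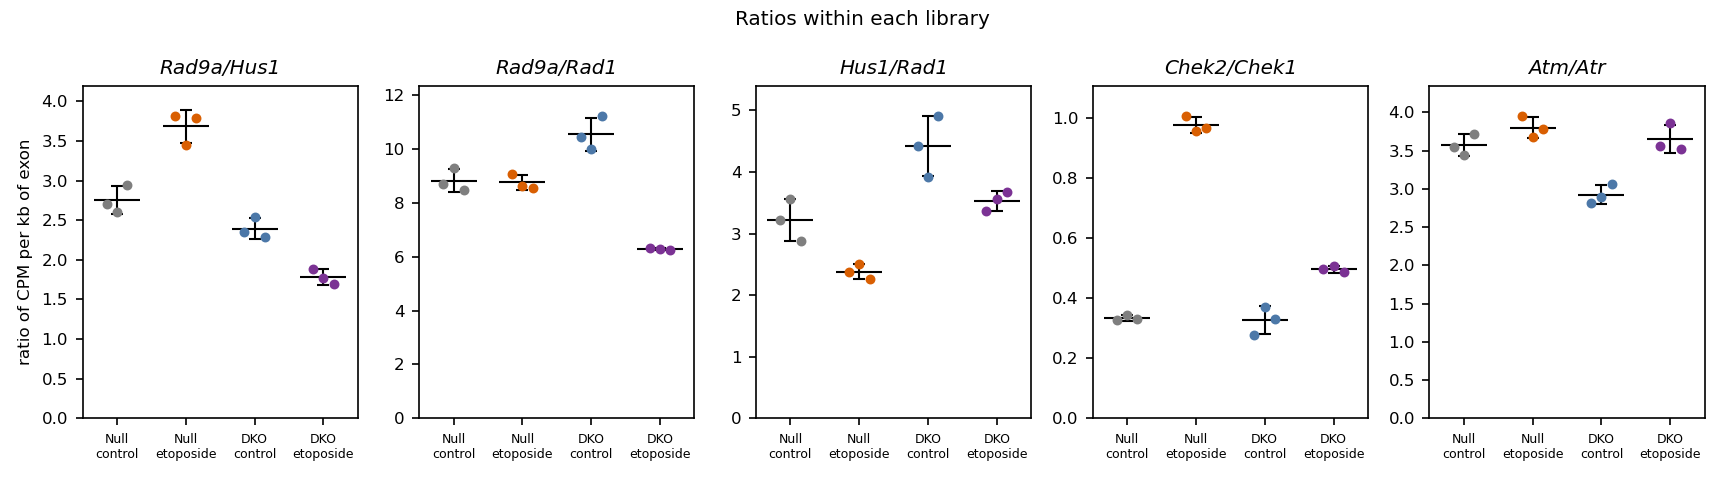
Ratio of levels per kilobase of exon (y axis, from 0) for 5 pairs of checkpoint genes in the 4 groups (x axis), with 1 point per library and a bar for the mean and SD of 3 libraries. The Rad9a to Hus1 ratio has means of 2.76, 3.68, 2.40 and 1.78 from left to right.

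Rad17 (chromosome 13, 100617164 to 100651051, minus strand), which loads the clamp, was at 43.7, 42.9 and 42.6 CPM in Null control and 33.9, 35.8 and 34.8 CPM in Null etoposide. Rad17 in DKO MEFs was at 39.4, 38.1 and 38.4 CPM without etoposide and 40.2, 39.1 and 44.9 CPM after it. The treated Null libraries were the lowest, and the DKO libraries of the 2 treatments overlapped. Rad17 fell by 0.31 in Null (SE 0.05, adjusted p = 2.04e-05), and the DKO response of 0.10 was not called (95% interval -3.43e-05 to 0.21). That response was called without DKO etoposide replicate 2 (0.13), with a filter at a mean of at least 1 CPM (0.14) and with library size alone (0.38), and with 1 library left out it ranged from 0.03, without DKO etoposide replicate 3, to 0.13. The responses differed by 0.41 (SE 0.07, adjusted p = 7.73e-05). Rad17 was lower in DKO without etoposide (-0.16, SE 0.05, adjusted p = 0.00947) and higher after it (0.25, SE 0.05, adjusted p = 0.000166). Its exons share 73 bases with Ak6 on the opposite strand, 0.904% of their length.

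Topbp1 (chromosome 9, 103305215 to 103350428, plus strand), the activator of ATR, was at 335, 332 and 326 CPM in Null control and 311, 303 and 293 CPM in Null etoposide. Topbp1 in DKO MEFs was at 461, 453 and 465 CPM without etoposide and 403, 399.9 and 420.03 CPM after it. Treated libraries lay below untreated ones in each genotype, and all DKO libraries lay above all Null libraries. After etoposide Topbp1 fell by 0.13 in Null (SE 0.03, adjusted p = 0.00128), a call lost with a filter at a mean of at least 1 CPM (-0.04) and turned to 0.04 with library size alone. In DKO it fell by 0.17 (SE 0.03, adjusted p = 0.000105), turned to 0.10 with library size alone, and the 2 responses were not called different (-0.04, 95% interval -0.14 to 0.05, called at -0.11 by DESeq2 and turned to 0.06, not called, with library size alone). It was higher in DKO by 0.47 without etoposide (SE 0.03, adjusted p = 4.73e-10) and by 0.43 after it (SE 0.03, adjusted p = 1.36e-09).

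Atm (chromosome 9, 53439149 to 53536740, minus strand), the kinase of double-strand breaks, was at 95.7, 94.9 and 98.5 CPM in Null control and 102, 92.7 and 87.8 CPM in Null etoposide. Atm in DKO MEFs was at 109.6, 109.8 and 110.5 CPM without etoposide and 146, 149.5 and 157 CPM after it. The treated DKO libraries stood above all others, while the Null libraries of the 2 treatments overlapped. Atm rose by 0.46 in DKO (SE 0.05, adjusted p = 7.19e-08) and was not called in Null (-0.03, 95% interval -0.13 to 0.06). In Null it was called lower without Null etoposide replicate 1 (-0.10) and higher with library size alone (0.14), and it was 0.01, not called, with DESeq2's size factors or without Null etoposide replicate 3. The responses differed by 0.49 (SE 0.06, adjusted p = 4.83e-06). Between genotypes Atm was higher in DKO by 0.19 without etoposide (SE 0.05, adjusted p = 0.00137), a call lost with library size alone (0.07), and by 0.68 after it (SE 0.05, adjusted p = 3.17e-10).

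Atm and Hus1 moved together, with a Pearson correlation of 0.961 over the 12 libraries. These points share their 4 groups, so the value is a description. Their promoter windows are shown because of this shared pattern. They are chr9:53536622-53536921 and chr11:9011142-9011441, both on the minus strand of GRCm38.p6 from RefSeq, and hold none of the motifs searched, so no letter is in capitals.
Atm: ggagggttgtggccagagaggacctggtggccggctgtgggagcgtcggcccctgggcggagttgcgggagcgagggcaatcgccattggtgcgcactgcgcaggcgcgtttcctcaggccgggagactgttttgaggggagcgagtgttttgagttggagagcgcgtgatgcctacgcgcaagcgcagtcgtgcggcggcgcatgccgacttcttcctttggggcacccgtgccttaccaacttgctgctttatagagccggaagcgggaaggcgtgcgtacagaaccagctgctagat
Hus1: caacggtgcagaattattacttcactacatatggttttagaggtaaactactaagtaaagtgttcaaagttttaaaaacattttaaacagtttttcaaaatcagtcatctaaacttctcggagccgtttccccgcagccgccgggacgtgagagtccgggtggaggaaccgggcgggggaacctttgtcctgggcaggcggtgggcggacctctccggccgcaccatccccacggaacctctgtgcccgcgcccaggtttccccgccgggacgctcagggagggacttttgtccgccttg

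Atr (chromosome 9, 95857597 to 95951781, plus strand), the kinase of single-stranded DNA, was at 61.6, 63.1 and 60.5 CPM in Null control and 59.1, 57.7 and 53.1 CPM in Null etoposide. In DKO MEFs it was at 88.9, 86.6 and 82.5 CPM without etoposide and 93.9, 88.6 and 102 CPM after it. All DKO libraries lay above all Null libraries, and in DKO the 2 treatments overlapped. Atr was higher in DKO by 0.48 without etoposide (SE 0.05, adjusted p = 2.13e-07) and by 0.74 after it (SE 0.05, adjusted p = 4.71e-10). Its etoposide response was lower in Null (-0.12, SE 0.05, adjusted p = 0.0373), turned to 0.04 with library size alone, and higher in DKO (0.14, SE 0.05, adjusted p = 0.0178). The Null call was lost without Null control replicate 1 (-0.13) or 2 (-0.12), without Null etoposide replicate 3 (-0.09), with DESeq2 or its size factors (-0.08) and with a filter at a mean of at least 1 CPM (-0.04). The DKO call was lost without DKO control replicate 2 (0.12) or 3 (0.11), without DKO etoposide replicate 3 (0.07) and with no filter (0.10). The difference between the responses was 0.27 (SE 0.07, adjusted p = 0.00484). Exons of Atr share 3.07% and 1.96% of their length with 2 antisense genes and 0.753% with a small nuclear RNA gene.

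Atrip (chromosome 9, 109057933 to 109074124, minus strand), the partner of ATR, was at 23.6, 22.5 and 23.3 CPM in Null control and 29.3, 29.4 and 29.0 CPM in Null etoposide. In DKO MEFs it was at 20.8, 25.6 and 24.0 CPM without etoposide and 27.5, 26.6 and 28.2 CPM after it. Treated libraries lay above untreated ones in each genotype, and the control libraries of the genotypes overlapped. Atrip rose by 0.34 in Null (SE 0.06, adjusted p = 7.04e-05) and by 0.22 in DKO (SE 0.06, adjusted p = 0.00349). Without DKO control replicate 1, the lowest library, the DKO rise was 0.12 and no longer called, the responses were called different (-0.21, from -0.12 over all libraries) and the genotypes after etoposide were called different (-0.12, from -0.09 over all libraries). Between untreated genotypes Atrip was not called (0.02, 95% interval -0.11 to 0.15) and turned to -0.10 with library size alone and -0.05 without DKO control replicate 2. The difference after etoposide was also called with DESeq2 or its size factors (-0.15) and with a filter at a mean of at least 1 CPM (-0.16). Atrip shares 1147 exon bases, 16% of its exon length, with Trex1 on the same strand, so its counts are uncertain. Of the 10 genes 5 lie on chromosome 9, namely Atm, Atr, Atrip, Topbp1 and Chek1.

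**Figure D3:**
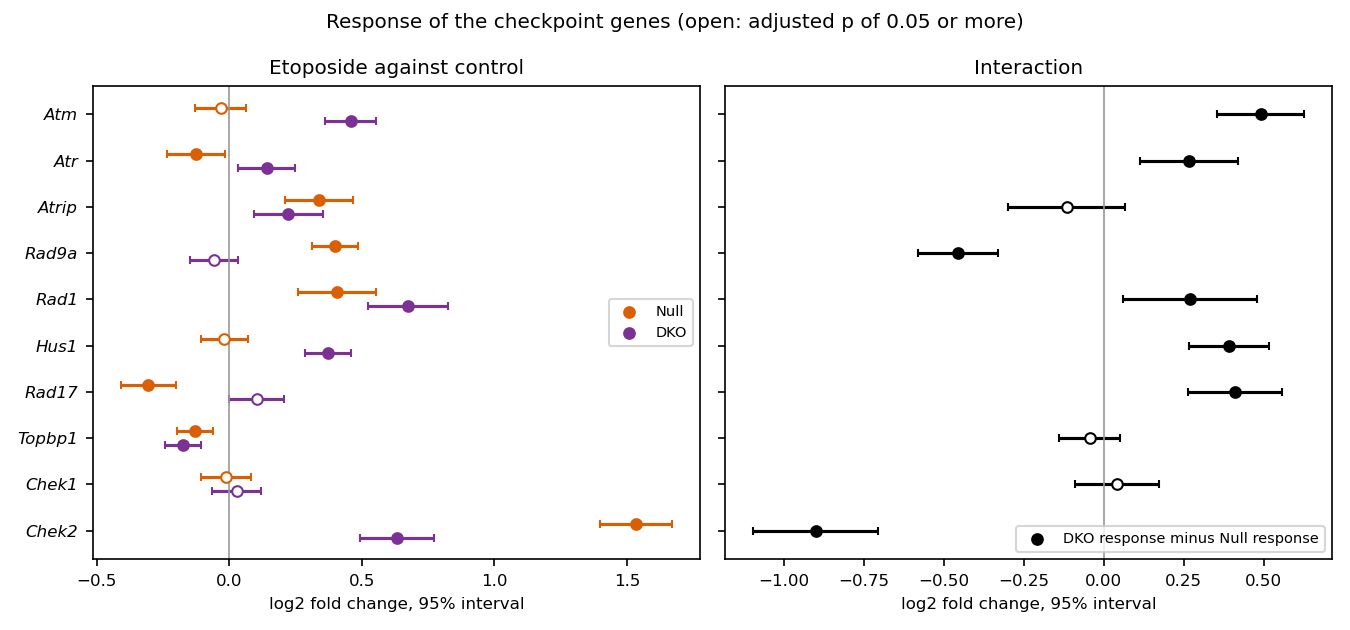
Log2 fold change after etoposide in Null and DKO MEFs (left) and the difference between these responses (right) for the 10 checkpoint genes, with 95% intervals from 12 libraries and open points where the adjusted p was 0.05 or more. Chek2 and Rad9a were called lower in DKO (-0.90 and -0.46). Atm, Rad17, Hus1, Rad1 and Atr were called higher (0.49, 0.41, 0.39, 0.27 and 0.27). With library size alone the Null responses of Atm, Atr, Hus1, Topbp1 and Chek1 turned from negative to positive. The DKO responses of Rad9a and Topbp1 did so too. In the right panel the uncalled differences of Topbp1 (-0.04) and Chek1 (0.04) turned to 0.06 with library size alone and to -0.02 with DESeq2's size factors.

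Levels of different genes were compared per kilobase of the union of annotated exons, which need not be the transcript these cells use. Among the 10 genes this union was longest for Atr (23.6 kb, against 10.3 kb for Atm). A shorter transcript in use would raise the level per kilobase given for Atr. In Null control the order of levels in CPM per kilobase was Topbp1 (29.5), Rad9a (21.5), Chek1 (11.8), Atm (9.32), Hus1 (7.79), Rad17 (5.33), Chek2 (3.95), Atrip (3.24), Atr (2.61) and Rad1 (2.44), and of these neighbours Atr and Rad1 overlapped. In Null etoposide the level of Rad9a (28.3 CPM per kilobase) stood above that of Topbp1 (26.95), and Chek2 (11.4) had moved from rank 7 to rank 4, overlapping with Chek1 (11.7). The rest of that order was Atm, Hus1, Rad17, Atrip, Rad1 and Atr, with no overlap between neighbours. In DKO control the order of levels per kilobase was Topbp1 (41.0), Rad9a (20.0), Chek1, Atm, Hus1, Rad17, Chek2, Atr, Atrip and Rad1 (1.90), with overlap of Rad17 with Chek2 and of Atr with Atrip. In DKO etoposide it was Topbp1 (36.3), Rad9a (19.3), Atm (14.6), Chek1 (13.85), Hus1 (10.8), Chek2 (6.87), Rad17, Atr, Atrip and Rad1 (3.06), with overlap of Atm with Chek1 and of Atr with Atrip.

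Gene span, from first to last annotated base, was given beside the responses because shorter genes had higher medians after etoposide. Among tested genes matched to 1 annotated gene (14611, 96.0%), the median log2 fold change after etoposide in Null was 0.20 for spans under 10 kb, 0.145 for 10 to 30 kb, -0.08 for 30 to 100 kb and -0.37 for over 100 kb. In DKO these medians were 0.23, 0.20, 0.00734 and -0.25. The spans were 6.47 kb for Rad9a, 13.05 kb for Rad1, 16.2 kb for Atrip, 18.05 kb for Hus1 and 18.6 kb for Chek1. They were 33.9 kb for Rad17, 34.2 kb for Chek2, 45.2 kb for Topbp1, 94.2 kb for Atr and 97.6 kb for Atm. The part of span in the responses of the checkpoint genes was not tested.

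Other genes of the checkpoint pathway were counted by role. Of 37, all tested, 18 rose and 14 fell after etoposide in Null (median 0.07), and 23 rose and 9 fell in DKO (median 0.30), with 24 and 12 in Null and 26 and 4 in DKO with library size alone. Of all genes tested 42.3% rose and 37.2% fell in Null (median 0.07) and 43.7% rose and 31.5% fell in DKO (median 0.14), so the Null counts were near those of all genes and nothing particular to the pathway is read from either. In the ATR branch, which includes the subunits of replication protein A, 7 of 8 rose in each genotype (8 of 8 with library size alone), with Rpa2 the highest (0.75 in Null, 1.07 in DKO). Its member Timeless, of the fork protection complex, was lower in Null by -0.10, a call lost with DESeq2, its size factors or a filter at a mean of at least 1 CPM and turned to 0.07 with library size alone. Of 11 genes of the ATM branch 3 rose and 5 fell in Null, with Rad50 at 0.62 and Trp53bp1 at -0.91, and 7 rose and 4 fell in DKO, with Atmin at 0.40 and Nbn at -0.47, whereas with library size alone 6 rose and 5 fell in Null and 7 rose and 1 fell in DKO. Of the 4 replication factor C subunits shared by clamp loaders 3 rose in each genotype (4 with library size alone), led by Rfc5 (0.53 in Null, 0.77 in DKO). Among 6 related kinases and co-chaperone genes 1 rose and 5 fell in Null and 2 rose and 2 fell in DKO, with Tti1 the highest in each (0.79 and 0.77), Tti2 the lowest in Null (-1.23) and Smg1 the lowest in DKO (-0.75), and with library size alone 3 rose and 1 fell in DKO. Among 6 targets and brakes of the effector kinases Ppm1d, a phosphatase that opposes the checkpoint, rose most (1.72 in Null, 1.13 in DKO) and Cdc25b, a phosphatase that promotes mitosis, fell most (-1.42 and -1.12).

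The 2 clamp paralogs were low. Rad9b had 89, 30 and 40 counts in Null control and 192, 153 and 146 in Null etoposide, and 14, 29 and 7 in DKO control and 56, 75 and 98 in DKO etoposide. In CPM the treated libraries lay above the untreated ones in each genotype. Hus1b had 1, 2 and 3 counts in Null control, 34, 13 and 10 in Null etoposide, 5, 8 and 2 in DKO control and 2, 9 and 7 in DKO etoposide. With so few counts nothing is read from a fitted fold of Hus1b.

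**Figure D4:**
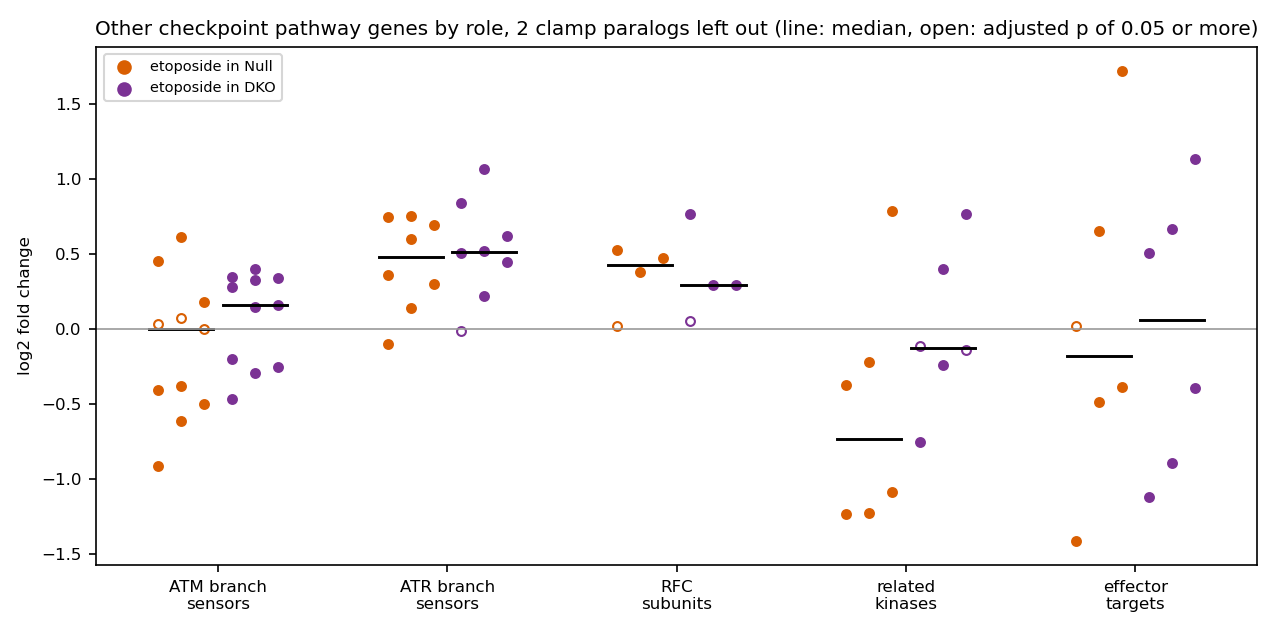
Log2 fold change after etoposide (y axis) of the other checkpoint pathway genes by role (x axis) in Null and DKO MEFs, without the 2 clamp paralogs, with 1 point per gene, open where the adjusted p was 0.05 or more, and a line at the median. Ppm1d is the highest point in Null (1.72) and Cdc25b the lowest (-1.42), and Timeless (-0.10 in Null) turned positive with library size alone.

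Between untreated genotypes 9 of the 37 pathway genes were higher in DKO and 17 lower (median -0.08, 6 and 24 with library size alone), against 33.3% and 33.4% of all genes (median -0.02). By role the highest and lowest were Rnf168 (0.53) and Trp53bp1 (-0.65), Etaa1 (0.26, lost with library size alone at 0.14) and Timeless (-0.77), Smg1 (0.31) and Tti2 (-0.68), and Wee1 (0.73) and Pkmyt1 (-0.13). Rfc3 was higher (0.40) and Rad9b lower (-1.71). The Pkmyt1 call was lost without Null control replicate 3 (-0.08) or DKO control replicate 1 (-0.12) or 3 (-0.11). After etoposide 17 were higher in DKO and 11 lower (median 0.02), which DESeq2's size factors turned to 14 and 15, against 37.5% and 36.6% of all genes (median -0.00446). By role the highest and lowest were H2afx (0.75) and Mdc1 (-0.39), Rhno1 (0.29) and Rpa3 (-0.45), Rfc5 (0.26) and Rfc2 (-0.14), and Pkmyt1 (0.36) and Ppm1d (-0.66). Smg1 was the highest of its role (0.79), and the Rfc2 call was lost without Null etoposide replicate 3 (-0.09). The etoposide response was higher in DKO for 14 of the 37 and lower for 7 (median 0.12), with 13 and 8 with DESeq2's size factors and 21 and 5 with library size alone, against 29.6% and 24.4% of all genes (median 0.05).

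Of 20 cell cycle genes 7 rose and 9 fell after etoposide in Null, where 42.3% of all genes rose and 37.2% fell, and 8 rose and 9 fell in DKO, where 43.7% rose and 31.5% fell, with 11 and 6 in Null and 13 and 7 in DKO with library size alone and 9 and 7 in Null with DESeq2's size factors. The total share called was near that of all genes in Null and above it in DKO, and nothing particular to the cell cycle is read from these counts. The 10 genes of S phase, with Pcna the most abundant except in DKO control (Mcm6), summed to 3071, 3017 and 2991 CPM in Null control, 3857, 3835 and 3869 CPM in Null etoposide, 3385, 3341 and 3383 CPM in DKO control and 4127, 4143 and 4327 CPM in DKO etoposide. The 10 genes of G2 and mitosis, with Top2a the most abundant in the controls and Mki67 after etoposide, summed to 3006, 2931 and 2873 CPM in Null control, 2060, 2132 and 2088 CPM in Null etoposide, 3128, 3119 and 3167 CPM in DKO control and 2228, 2178 and 2349 CPM in DKO etoposide. After etoposide the S phase sum was above and the mitotic sum below that of the controls in each genotype, without overlap. Of the S phase genes 7 rose and 1 fell in Null and 8 rose in DKO, led by Ccne2 (1.79 and 1.39), and the fall of Mcm2 in Null (-0.10) was lost with DESeq2, its size factors or a filter at a mean of at least 1 CPM and turned to 0.06 with library size alone, where 9 rose and 0 fell. Of the mitotic genes 8 fell in Null, with Top2a the lowest (-0.93), and 9 fell in DKO, with Ccnb2 the lowest (-1.14), while with library size alone 6 fell and 2 rose in Null and 7 fell and 3 rose in DKO, and with DESeq2's size factors 7 fell and 1 rose in Null. Between untreated genotypes 8 of the 20 were higher in DKO, with Ccne1 (0.90) the highest of S phase and Mki67 (0.42) of G2 and mitosis, and 2 lower, with Ccnb1 at -0.56, which library size alone turned to 4 and 9, against 33.3% and 33.4% of all genes. After etoposide 11 were higher in DKO, with Mcm6 (0.50) and Mki67 (0.44) the highest of these roles, and 7 lower, with Rrm2 (-0.74) and Ccnb1 (-0.56) the lowest, against 37.5% and 36.6% of all genes. The part of the cell cycle in the responses of the checkpoint genes was not tested.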

How the data were processed

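RNA was sequenced from 12 libraries, 3 in each of 4 groups taken from the sample labels. According to the methods of the study, stranded paired-end libraries were made after ribosomal RNA depletion, and the authors used FastQC, Cutadapt where required, HISAT2 and HTSeq on the GENCODE comprehensive annotation. The submitters' processing notes name HISAT2, featureCounts and mm10 instead, so the counter is uncertain. Versions and strand setting are not given in the sources used here. The deposited values are whole counts per gene, without normalization, and 5 summary lines were left out. With these lines included, genes held 53.4 to 63.1% of each library, and the lines for no feature (20.2 to 27.3%), alignments that were not unique (15.9 to 20.5%) and ambiguous ones (0.428 to 0.513%) held most of the rest.

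Counts were fitted in R 4.3.3 with edgeR 4.0.16 (filterByExpr, TMM, glmQLFit with 1 group factor, glmQLFTest), with Benjamini-Hochberg adjustment over 15220 genes and a threshold of 0.05. The newer version of glmQLFit was used: it was chosen because it matched an earlier analysis of these data, after the newer and the legacy version had both been run under several settings. Each standard error is the absolute log2 fold change over the root of F, and 95% intervals come from the t distribution of the fit. An exact permutation test of 3 against 3 libraries cannot go below 0.1. Replicates differed by more than counting alone would give (chi-square over its degrees of freedom 10.8 to 22.6). Alternatives were DESeq2 1.42.0, its size factors in edgeR, library size alone, robust limma-trend (limma 3.58.1), no filter, a mean of at least 1 CPM, a replicate block, the 6 libraries of a comparison, each library left out in turn and the legacy fit. The fit was tested on simulated data.

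The members and lists were chosen with earlier results of these data known. The genes named were the 10 checkpoint genes, Tfeb and Tfe3, the pathway and cell cycle genes with the largest called rise and fall of each role in each comparison, and for Chek2, Chek1, Rad9a and Atm the 3 genes of at least 10 CPM with the highest correlation of log2 CPM (prior count 2). Coordinates and exon lengths came from GENCODE M21 on GRCm38, matched by symbol. Python 3.11.15 with pandas 2.3.3 was used for annotation. In the medians by span, tested genes without counts in both groups compared were left out (12 for etoposide in DKO, 206 between untreated genotypes).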

Additional observations from a re-analysis of the deposited data

Results flagged for a closer look

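The etoposide response differed between the genotypes in a test of the interaction (log2 response in DKO minus that in Null, quasi-likelihood test of edgeR, adjusted by Benjamini-Hochberg) for 7 of 10 checkpoint genes, where 54% of all genes tested were called (29.6% higher and 24.4% lower), and nothing particular to these genes or lists is read from the counts. It was higher in DKO for Atm (0.49), Rad17 (0.41), Hus1 (0.39), Rad1 (0.27) and Atr (0.27), and lower for Rad9a (-0.46) and Chek2 (-0.90). The Rad1 call was lost in 10 of 20 alternatives (0.21 to 0.26), which include DESeq2 and leaving out replicate 1 or 3 of Null control or of DKO control, replicate 1 of Null etoposide, or replicate 1 or 2 of DKO etoposide.

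The targeted genes differed in the same test, Tfeb by 0.49 and Tfe3 by 0.28. The Tfeb call was lost without DKO control replicate 1 (0.40) or DKO etoposide replicate 3 (0.32).

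Of the 37 other pathway genes, 14 had a higher and 7 a lower response in DKO, against 29.6% and 24.4% of all genes. These counts were 13 and 8 with DESeq2's size factors and 21 and 5 with library size alone. Of those named by rule, the highest and lowest of each role, the response was higher in DKO for Tti2 (0.99), H2afx (0.74), Timeless (0.72), Pkmyt1 (0.49) and Rfc4 (0.28), and lower for Ppm1d (-0.59), Rfc3 (-0.42), Rad50 (-0.34) and Etaa1 (-0.24). The Etaa1 call was lost with library size alone (-0.14) and without Null control replicate 3 (-0.20), Null etoposide replicate 2 (-0.21) or DKO control replicate 1 (-0.20). The fitted value for Hus1b was -2.81, but it rests on 1 to 3 counts in the Null control libraries. It may depend on the prior count, which was not varied. The call was lost in 8 of 19 alternatives, with -2.13 without Null etoposide replicate 1.

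Of the 20 cell cycle genes, 3 had a higher and 5 a lower response in DKO, against 29.6% and 24.4% of all genes. These counts were 2 and 9 with DESeq2's size factors and 8 and 5 with library size alone. Those named by rule, the highest and lowest of each role, were Mcm3 (0.27) and Cdk1 (0.25), which were higher, and Rrm2 (-0.78) and Ccnb2 (-0.44), which were lower.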

How the results depend on the processing

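The 50 results for checkpoint genes have 1040 alternative values, of which 942 kept direction and side of the threshold, 57 lost the call, 11 gained it, 8 turned direction where the value was called before or after, and 22 changed sign without being called in either fit. For the 75 other named results, 1525 of 1556 kept both, 28 lost the call, 2 turned direction and 1 changed sign uncalled (Tfe3 after etoposide, 0.03 without DKO etoposide replicate 3). The uncalled sign changes were in Atm, Hus1 and Chek1 after etoposide in Null, Chek1 after etoposide in DKO, Atrip between untreated genotypes (-0.10 with library size alone) and the interactions of Topbp1 (0.06 with library size alone) and Chek1. The turns with a call came with library size alone: after etoposide in Null Atm 0.14, Atr 0.04416, Hus1 0.15, Topbp1 0.03736, Chek1 0.15, Timeless 0.06874 and Mcm2 0.0648, after etoposide in DKO Rad9a 0.22 and Topbp1 0.10, and between untreated genotypes Hus1 -0.02275. The cause was not tested for any of them. The number of checkpoint genes called between untreated genotypes moved from 9 to 5 with library size alone (2 higher and 3 lower), and the cause was not tested. With each library left out in turn, the number called was 6 to 8 for etoposide in Null (7 with all), 6 to 8 for etoposide in DKO (7), 6 to 8 between untreated genotypes (9), 8 to 9 after etoposide (8) and 6 to 7 for the interaction (7). No pairing by replicate number was seen, as same-numbered libraries had correlations of -0.03 to 0.04 in 18 pairs once group means were removed. These values cannot show whether same-numbered cultures were handled together. With the replicate number as a block 7, 7, 6, 8 and 7 genes were called in the same order. The block lost the untreated calls of Rad9a, Hus1 and Chek2. The Rad9a call between untreated genotypes (-0.10, adjusted p = 0.0421 by edgeR) was also lost without Null control replicate 1 or 3, Null etoposide replicate 3 or DKO control replicate 1 or 3 (-0.07 to -0.11) and with no filter. The legacy version of the fit was chosen as an alternative after seeing the data and called 7, 7, 9, 8 and 7 genes. Depth was at least 45.6 M counts. It may limit the lowest genes, such as Hus1b, but its part in the calls was not tested.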

Other observations

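The genes whose levels were most like those of 4 checkpoint genes were found over 12 libraries among 9343 genes, by Pearson correlation of log2 CPM. The libraries share their 4 groups, so these values are descriptions. For Chek2 they were Tmem184c (0.9945), Natd1 (0.9927) and Msh6 (0.9911), the last a mismatch repair gene. For Chek1 they were Ergic2 (0.9714), Cetn2 (0.966) and Rnft1 (0.9653). For Rad9a they were Sh3bp1 (0.9873), Foxo3 (0.9861) and Abcd4 (0.985). For Atm they were Mcm9 (0.9888), Prkrir (0.9856) and Dmxl2 (0.9844).

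Among the checkpoint genes themselves, Atr was most like Chek1 (0.951) and Topbp1 (0.906), and Atrip was most like Chek2 (0.918). The most opposed pair was Atr and Rad9a (-0.823).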
